A study of Homo sapiens with 6 samples.

Results

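The genes described here are 42 ligands, receptors, adaptors and secreted modulators of the Wnt pathway, measured by RNA-seq in HaCaT cells, an immortalised human keratinocyte line. They were chosen by name from the table of 20035 genes, without a cut on any measured value but with earlier results of these data known. All 42 were found in it. They comprise 14 Wnt ligands, 10 Frizzled receptors, 3 LRP co-receptors, the 2 alternative receptors ROR2 and RYK, 4 genes of R-spondin reception and Frizzled turnover, 3 Dishevelled adaptors, 2 genes of Wnt lipidation and secretion, and 4 secreted inhibitors. The palmatine group held 3 libraries of wild-type HaCaT cells treated with palmatine, a plant alkaloid. The control group held 3 libraries of wild-type HaCaT cells whose treatment is labelled as none. The stated design is an IL-17 model of psoriasis-like inflammation to which palmatine was added, and its title names NF-κB and Wnt signalling. The sources used here do not say whether the control cells also received IL-17. If they did not, palmatine and IL-17 cannot be told apart in this comparison. Dose and time are not given either, and all 6 libraries come from 1 cell line.

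Wnt proteins are secreted glycoproteins that receive a lipid in the endoplasmic reticulum and are carried to the cell surface before they bind Frizzled receptors. Together with the co-receptors LRP5 and LRP6, the bound receptor recruits Dishevelled, the complex that degrades beta-catenin is held off, and beta-catenin enters the nucleus to act with TCF/LEF factors. Other receptors, such as ROR2 and RYK, carry signals that do not need beta-catenin. In skin the pathway is needed for hair follicle formation and takes part in the upkeep of the epidermal stem cell layer.

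Between 12908646 and 17218171 reads were counted per library. All 10 keratinocyte markers examined were present, with mean FPKM between 52.6 and 970. FPKM, the deposited unit of level, is the read count scaled to gene length and to the library's total count. It lets genes of different length be set side by side, by the length the table gives for each. That length need not be that of the mRNA expressed here, and FPKM orders between genes depend on it. CPM, the other unit used, is the count of a gene scaled to the same total in every library, without regard to length. Summed markers of fibroblasts (4.18 to 5.88 CPM in palmatine libraries, 2.64 to 5.08 in control libraries), melanocytes (6.59 to 7.24 and 5.54 to 7.43) and leukocytes (0.312 to 0.391 and 0.260 to 0.479) were low, and COL1A2, TYR, DCT, CD3D and CD2 had no read. Mitochondrially encoded genes took 5.25% to 5.72% of counts in palmatine libraries and 7.22% to 7.88% in control libraries. In bulk RNA, fewer cells of a kind and less RNA per cell cannot be told apart. Scaling by TMM, which sets libraries level on the bulk of their genes, gave factors of 1.01 to 1.04 for palmatine and 0.970 to 0.985 for control libraries, and CPM values below include these factors. The libraries also differed in a trend with gene length: the rank correlation across genes between a library's deviation from the mean and gene length was 0.488, -0.330 and 0.431 in palmatine libraries 1, 2 and 3, and 0.204, -0.399 and -0.392 in control libraries 1, 2 and 3. Palmatine library 2 therefore lay with control libraries 2 and 3 in this respect, and control library 1 with palmatine libraries 1 and 3. Fold changes are given below as fitted and, where it matters, with this length trend removed.

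No member passed the test between palmatine and control. Counts were compared with edgeR's quasi-likelihood test over the 12356 genes with enough reads, 36 members among them, and p-values were adjusted by Benjamini and Hochberg over all of these genes at a threshold of 0.05. Among all genes tested, 0% were called higher in palmatine and 0.0405% (5 genes) lower, and none of these 5 was a member. The smallest adjusted p of any member was 0.455 with edgeR, and DESeq2 and limma called 0 members as well. At an unadjusted p under 0.05, 2 members (5.56%) were higher and 1 (2.78%) was lower, against 5.13% and 4.69% of all genes tested. These shares are near the background and are not a result about the members. Of the 36, 23 had a positive log2 fold change (63.9%), against 49.6% of all genes, and the median was 0.07, against a median of -0.00178 over all genes. With libraries scaled by total counts alone the split was 27 positive and 9 negative, so the number of positive signs depends on the scaling. The share of all genes with a positive sign was not computed for that scaling. The 95% interval of the fold change excluded a 2-fold difference in either direction for 34 of the 36 members, all but WNT6 and WNT10B, and a 1.5-fold difference for 29. Of all 12356 genes tested, 11720 excluded a 2-fold difference and 9810 a 1.5-fold difference, so these counts are not a result about the members.

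**Figure D1:**
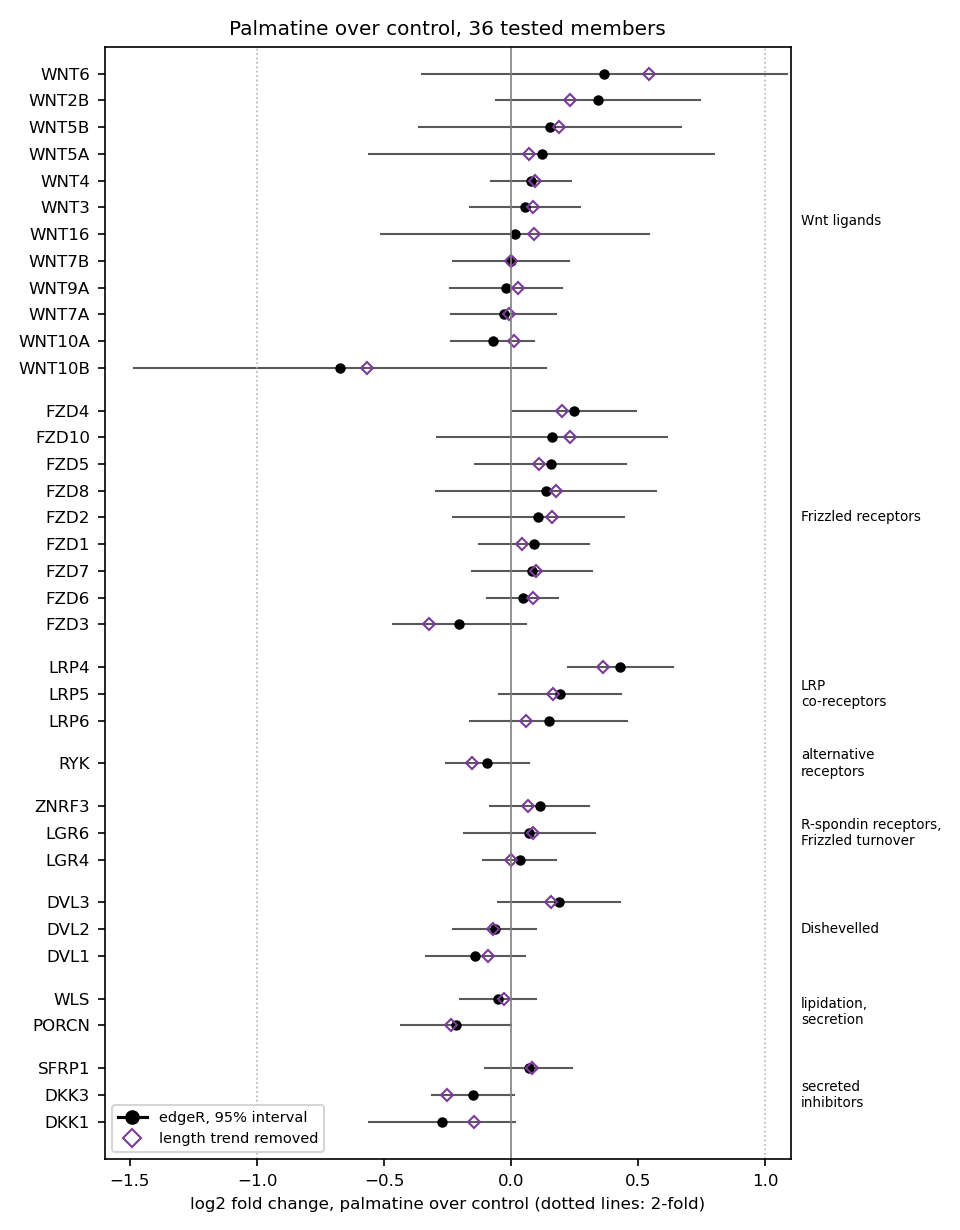
Log2 fold change of palmatine over control for the 36 tested members, grouped by role; black points are edgeR estimates with their 95% intervals (3 libraries a group) and open diamonds the same with the trend in gene length removed. All intervals but those of LRP4, FZD4 and PORCN span 0, and only those of WNT6 and WNT10B cross a dotted line at a 2-fold difference.

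HaCaT cells carried mRNA of most of the ligands at low level and of 1 at a high level. WNT10A, a ligand whose mutation in people impairs teeth, hair, nails and sweat glands, had 40.2, 43.9 and 41.7 FPKM in palmatine libraries and 41.6, 44.9 and 40.1 FPKM in control libraries. The groups overlapped, with the log2 fold change at -0.07 ± 0.0731 (SE; edgeR adjusted p = 0.643). WNT10A made up 54.4% ± 1.77 of the summed ligand FPKM in palmatine and 56.1% ± 1.53 in control libraries (SD, n = 3 each), and was 3.82 to 4.54 times WNT4 in each of the 6 libraries.

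WNT4, a ligand also known for its part in kidney and female reproductive tract development, was second at 10.5 ± 0.177 FPKM in palmatine and 9.51 ± 0.365 FPKM in control libraries (SD, n = 3 each). It is singled out here after its values were seen, since its CPM did not overlap: 47.16, 48.92 and 47.08 in palmatine libraries and 44.73, 46.98 and 43.95 in control libraries, both TMM-scaled. The lowest palmatine and the highest control library were separated only by the step between 47.08 and 46.98, and the log2 fold change was 0.08 ± 0.0702 (SE; edgeR adjusted p = 0.607). In all, 2 members, LRP4 and WNT4, had all 3 palmatine values above all 3 control values on this scale and 1, PORCN, had all 3 below, against 6.68% and 5.71% of all genes tested. On the deposited FPKM scale, which has no TMM factor, 8 members lay wholly above (WNT3, WNT4, FZD4, FZD6, LRP4, LGR4, ZNRF3 and SFRP1; 22.2%) and 0 wholly below, against 13.9% and 2.23% of all genes tested.

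Below these came WNT9A, at 8.80 FPKM in palmatine and 8.55 FPKM in control libraries, WNT7B at 5.38 and 5.15, WNT7A at 4.56 and 4.45, and WNT3, a ligand that acts through beta-catenin, at 2.52 and 2.32. Each of these ligands was above the next in all 6 libraries, although the ratio of WNT4 to WNT9A came down to 1.00 and that of WNT7B to WNT7A to 1.02 in the closest library. The log2 fold changes of these 4 ligands lay between -0.03 and 0.06. WNT16, WNT5B, WNT6, WNT2B, WNT10B and WNT5A, the last the best known ligand of signalling without beta-catenin, had group means between 0.262 and 0.685 FPKM in both groups, and their order changed from library to library. WNT3A, the ligand most used to start beta-catenin signalling in culture, had 0 to 6 reads per library and WNT11 had 0 to 7, too few to be tested.

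Among these weakly expressed ligands WNT2B and WNT10B had the smallest p. WNT2B had 160, 95 and 117 reads in palmatine libraries and 94, 83 and 65 reads in control libraries. Scaled by TMM these were 8.96, 6.20 and 7.31 CPM with palmatine and 7.24, 5.40 and 5.19 in controls, with overlap. Its log2 fold change was 0.34 ± 0.179 (SE; edgeR adjusted p = 0.455) and 0.23 with the length trend removed. WNT2B shares 2661 exon bases with ST7L on the opposite strand (GENCODE 29, GRCh38). No source used here says whether the counting used strand, so how reads on the shared bases were assigned is not known. ST7L itself, at 1.81 FPKM, had a log2 fold change of 0.10. WNT10B had only 15, 11 and 7 reads in palmatine libraries and 10, 22 and 12 in control libraries. Its log2 fold change of -0.67 ± 0.360 (SE; edgeR adjusted p = 0.455) had a 95% interval from -1.48 to 0.14, which at this depth does not exclude a level lower by 2-fold.

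WNT10A and WNT6 lie next to each other on chromosome 2 in the same orientation, yet differ in level. The deposited table places WNT6 at chr2:218859805-218874233 and WNT10A at chr2:218880852-218899581. WNT6 had 0.743, 0.422 and 0.849 FPKM in palmatine libraries and 0.485, 0.556 and 0.451 FPKM in control libraries, from 10 to 23 reads. The 250 bases upstream of each start are shown to set the neighbours side by side (RefSeq, GRCh38.p14, plus strand, 5′ to 3′). The sequence of WNT10A is chr2:218880602-218880851 and that of WNT6 is chr2:218859555-218859804. Capitals mark the match to the NF-κB consensus motif, searched on both strands since NF-κB is named in the study's title.
WNT10A: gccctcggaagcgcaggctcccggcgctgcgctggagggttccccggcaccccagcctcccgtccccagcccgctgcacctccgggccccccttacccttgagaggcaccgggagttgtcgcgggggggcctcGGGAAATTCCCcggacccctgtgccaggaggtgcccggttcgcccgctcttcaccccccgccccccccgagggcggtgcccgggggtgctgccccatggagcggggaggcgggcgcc
WNT6: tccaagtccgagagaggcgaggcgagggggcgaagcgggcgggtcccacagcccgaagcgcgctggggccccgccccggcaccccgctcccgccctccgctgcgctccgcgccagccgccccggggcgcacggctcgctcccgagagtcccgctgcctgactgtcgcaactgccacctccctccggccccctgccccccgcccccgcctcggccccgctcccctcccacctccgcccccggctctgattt
Both stretches are rich in G and C, at 77.6% for WNT10A and 79.2% for WNT6. In WNT10A the motif is met on both strands in 2 overlapping positions, 117 and 116 bases upstream of the start, and no match was found in WNT6. The RefSeq promoter table held 35 entries for 28 of the 42 members. Of these 35, 7 held an NF-κB match (FZD5, FZD9, WNT10A, WNT16, WNT2B, WNT4 and WNT7A; 20.0%), against 9.96% of all 35116 promoters in the table. These 7 genes include both strongly expressed members and FZD9, which had 0 to 3 reads per library. A match is a description of letters only.

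**Figure D2:**
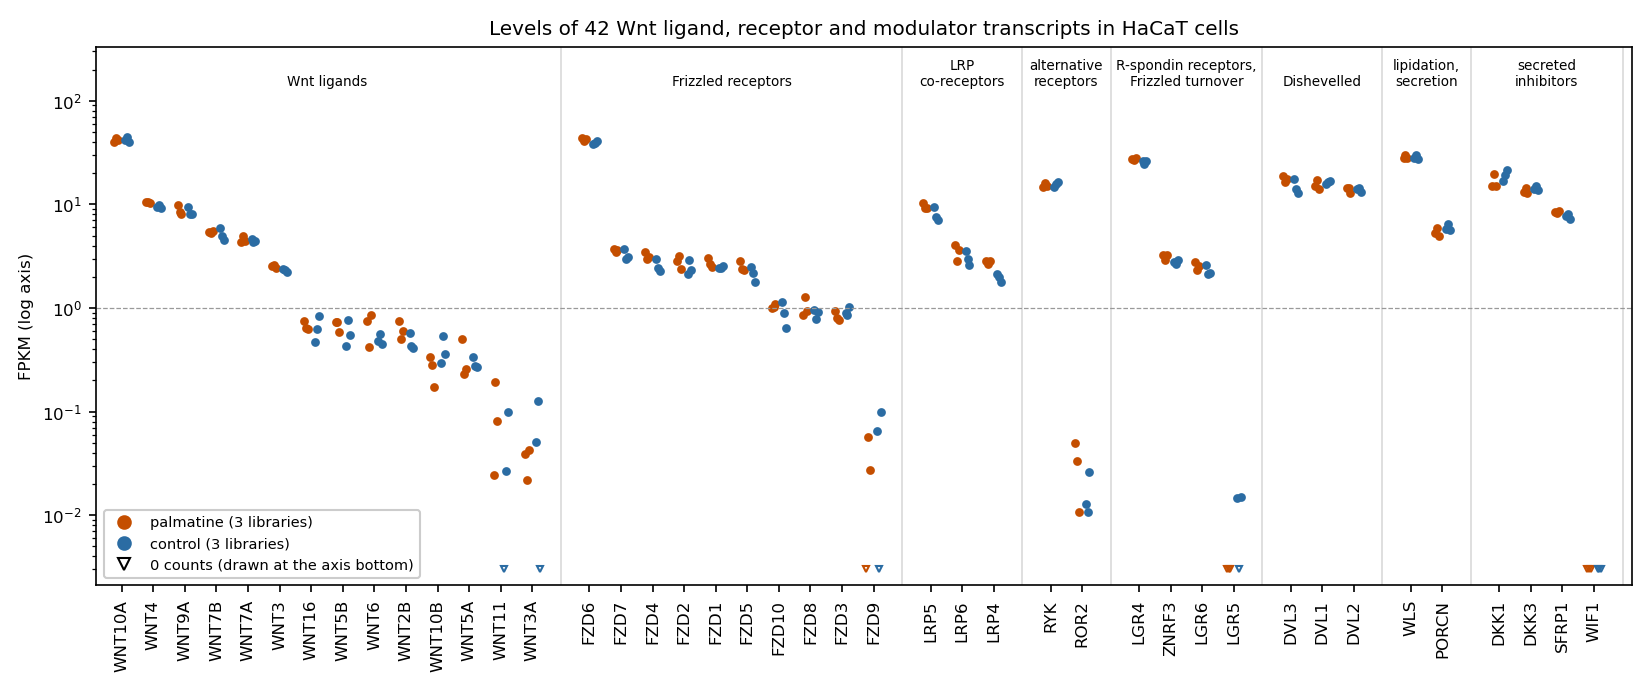
FPKM on a log axis for all 42 members, ordered within each role by mean level; each point is 1 library, palmatine left of control, and triangles at the axis bottom mark libraries with 0 counts. WNT10A and FZD6 stand above the rest of their families in all 6 libraries, while WIF1 has no read in any.

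FZD6 was to the Frizzled receptors what WNT10A was to the ligands. This receptor, whose mutation in people causes nail dysplasia and which in mice orders hair follicles across the skin, had 43.8, 41.2 and 42.5 FPKM in palmatine libraries and 38.5, 38.9 and 40.7 FPKM in control libraries. On that scale the groups did not overlap, whereas the TMM-scaled CPM did, at 172, 165 and 170 with palmatine and 159, 162 and 171 in controls. FZD6 had a log2 fold change of 0.05 ± 0.0624 (SE; edgeR adjusted p = 0.743). FZD6 held 70.6% ± 1.13 of the summed Frizzled FPKM in palmatine and 71.6% ± 1.92 in control libraries (SD, n = 3 each), and was 10.3 to 13.2 times FZD7, the next.

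FZD7 stood at 3.60 FPKM in palmatine and 3.27 FPKM in control libraries, above FZD4 in all 6. FZD4, FZD2, FZD1 and FZD5 followed, FZD4 at 3.18 and FZD2 at 2.78 FPKM in palmatine libraries against 2.56 and 2.46 FPKM in control libraries, and their order was not stable between libraries. FZD10, FZD8 and FZD3 were between 0.834 and 1.04 FPKM in both groups, also without a stable order. FZD9 was not tested. Of the 9 receptors tested, 8 had a positive log2 fold change, from 0.05 to 0.25, and FZD3, a receptor of planar polarity and axon guidance in mice, had -0.20. With the length trend removed FZD3 was at -0.32, with an unadjusted edgeR p of 0.0230. At 13786 bases it is the longest of the tested members in the table.

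FZD4, which besides Wnt proteins binds Norrin in the retinal vasculature, had the second smallest p of the members. It had 24.6, 21.9 and 22.4 CPM in palmatine libraries and 22.2, 18.5 and 17.4 in control libraries. The groups overlapped, control library 1 lying above palmatine library 2. For FZD4 the log2 fold change was 0.25 ± 0.107 (SE; edgeR unadjusted p = 0.0444, adjusted p = 0.455), and 0.20 with an unadjusted edgeR p of 0.0510 once the length trend was removed. FZD4 shares 1399 exon bases with PRSS23 on the opposite strand, a gene at about 14.0 FPKM whose own log2 fold change was -0.05.

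The summed Frizzled FPKM was 62.4, 59.0 and 59.1 in palmatine libraries and 55.3, 54.3 and 55.4 in control libraries, without overlap. Scaled by TMM the sums were 60.2, 58.3 and 58.1 with palmatine and 56.2, 55.5 and 57.1 in controls, so that the gap between the groups narrowed to that between 58.1 and 57.1. FZD6 makes up most of this sum, and no p is given for it. The summed ligands stood at 77.1 ± 1.603 FPKM in palmatine and 75.2 ± 3.18 FPKM in control libraries (SD, n = 3 each), and after TMM scaling at 75.4 and 76.9.

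LRP4 had the smallest p of all members. It is an LRP receptor that binds sclerostin and Dickkopf proteins and, at the nerve-muscle junction, agrin, and it differs from LRP5 and LRP6 in that it can dampen Wnt signalling. In the deposited table LRP4 lies on the minus strand at chr11:46856717-46918642. It had 426, 350 and 391 reads in palmatine libraries and 248, 273 and 199 reads in control libraries. As CPM these were 23.9, 22.8 and 24.4 with palmatine and 19.1, 17.8 and 15.9 in controls. All 3 palmatine libraries lay above all 3 control libraries, and the part of the gene-length trend in the LRP4 difference was not tested. The log2 fold change was 0.43 ± 0.0923 (SE; 95% interval 0.22 to 0.64), a 1.35-fold difference, with an unadjusted edgeR p of 0.00106 and an adjusted p of 0.455. Removing the length trend left 0.36 with an unadjusted edgeR p of 0.000828. Over the 19 alternatives tried the log2 fold change of LRP4 stayed between 0.34 and 0.49 and its adjusted p between 0.0953 and 0.932, so it did not pass in any of them. An antisense gene, LRP4-AS1, shares 515 exon bases with it. DKK1, FZD6, WLS, WNT4 and DVL1 share 31 to 212 exon bases with genes on the opposite strand.

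LRP5 and LRP6, the co-receptors of beta-catenin signalling, were higher in level than LRP4. LRP5 had 61.6, 55.8 and 56.5 CPM in palmatine libraries and 59.6, 47.6 and 45.2 in control libraries. Control library 1 lay among the palmatine libraries, and the log2 fold change was 0.19 ± 0.107 (SE; edgeR adjusted p = 0.459). On the FPKM scale LRP5 stood at 9.59 ± 0.646 with palmatine and 8.03 ± 1.28 in controls, LRP6 at 3.499 ± 0.6003 and 3.03 ± 0.459, and LRP4 at 2.77 ± 0.111 and 1.97 ± 0.194 (SD, n = 3 each). That order held in all 6 libraries. LRP4 contributed 17.5% ± 0.893 of the summed LRP FPKM in palmatine and 15.2% ± 0.899 in control libraries (SD, n = 3 each), in no library as much as LRP6.

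**Figure D3:**
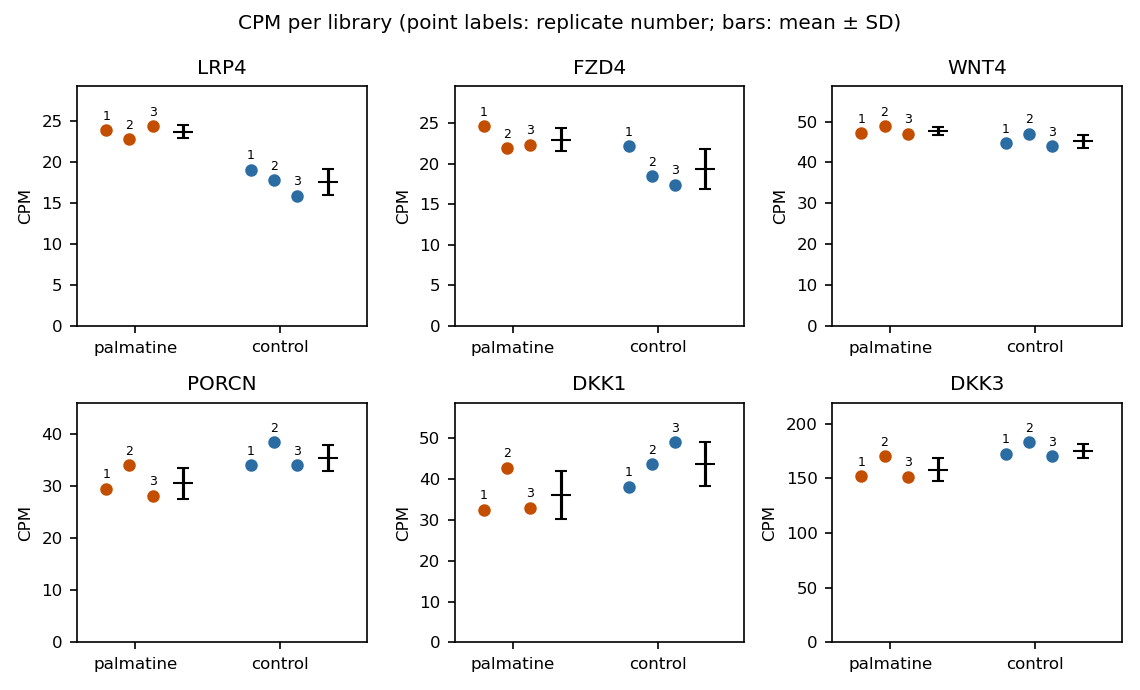
TMM-scaled CPM in each library for 6 members; points carry the replicate number and the bars beside them are mean ± SD of 3 libraries, each axis starting at 0. LRP4 separates the groups clearly, WNT4 and PORCN only narrowly, and in FZD4, DKK1 and DKK3 at least 1 control library lies within the palmatine range.

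Of the alternative receptors, RYK, a receptor with an inactive kinase domain, had 116, 128 and 122 CPM in palmatine libraries and 122, 132 and 137 in control libraries. The groups overlapped, with a log2 fold change of -0.09 ± 0.0728 (SE; edgeR adjusted p = 0.552) at 15.3 FPKM with palmatine and 15.6 FPKM in controls. ROR2, the receptor tyrosine kinase of WNT5A signalling, had 1 to 5 reads per library and was not tested.

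R-spondins bind LGR4, LGR5 and LGR6 and so keep the ubiquitin ligases ZNRF3 and RNF43 from removing Frizzled receptors. LGR4 was the most abundant of these receptors, at 168.9, 169.0 and 173.5 CPM in palmatine libraries and 170, 158 and 172 in control libraries. The values overlapped, with a log2 fold change of 0.03 ± 0.0643 (SE; edgeR adjusted p = 0.823). LGR6, which marks stem cells of the hair follicle in mice, was far lower, at 2.54 FPKM with palmatine and 2.32 FPKM in controls. LGR5, a stem cell marker of hair follicle and gut in mice, had 0 reads in the palmatine libraries, which allows up to 0.0609 CPM over the 48127288 reads of that group, and 2 reads in the control libraries. ZNRF3 stood at 3.13 ± 0.203 FPKM with palmatine and 2.78 ± 0.106 FPKM in controls (SD, n = 3 each), with a log2 fold change of 0.11. Of the 4 R-spondin genes, 3 had no read in any library and RSPO4 had at most 2.

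The 3 Dishevelled adaptors, which pass the signal from Frizzled into the cell, were expressed at like level. DVL3 had 113, 102 and 109 CPM in palmatine libraries and 112, 90.4 and 82.9 in control libraries. Control library 1 lay among the palmatine libraries, and the log2 fold change was 0.19 ± 0.106 (SE; edgeR adjusted p = 0.461). In FPKM, DVL3 stood at 17.5 with palmatine and 14.8 in controls, DVL1 at 15.4 and 16.3, and DVL2 at 13.8 in both. DVL3 exceeded DVL1 in 3 of the 6 libraries, so the order of these 2 is not settled. DVL1 and DVL2 had log2 fold changes of -0.14 and -0.07.

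PORCN, the acyltransferase that lipidates Wnt proteins and whose loss in people causes focal dermal hypoplasia, had the smallest p among members with a negative log2 fold change. In the deposited table it lies on the plus strand at chrX:48508959-48520814. It had 29.5, 33.9 and 28.2 CPM in palmatine libraries and 34.0, 38.3 and 34.0 in control libraries. The groups were separated by no more than the step between 33.92 in palmatine library 2 and 33.95 in control library 1, and on the deposited FPKM scale they overlapped. For PORCN the log2 fold change was -0.22 ± 0.0957 (SE; edgeR unadjusted p = 0.0482, adjusted p = 0.455), and -0.24 with an unadjusted edgeR p of 0.0247 once the length trend was removed. WLS, the carrier that takes lipidated Wnt proteins to the cell surface, had 122, 131 and 124 CPM in palmatine libraries and 127, 136 and 126 in control libraries, with overlap. Its log2 fold change was -0.05 ± 0.0672 (SE; edgeR adjusted p = 0.724), and the sign turned positive, at 0.01, when libraries were scaled by total counts alone. WLS was 4.63 to 5.70 times PORCN in FPKM.

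The secreted inhibitors include DKK1, which binds LRP5 and LRP6 and keeps them from Wnt, and which is itself a known target of beta-catenin. DKK1 had 32.49, 42.73 and 32.97 CPM in palmatine libraries and 38.1, 43.6 and 48.9 in control libraries. Palmatine library 2 lay between control libraries 1 and 2. For DKK1 the log2 fold change was -0.27 ± 0.128 (SE; edgeR adjusted p = 0.455). DKK1 is a short gene in the table, at 2221 bases, and with the length trend removed the log2 fold change was -0.15. The libraries with more reads on long genes, palmatine 1 and 3 and control 1, were the 3 lowest in DKK1, and the part of that trend in the DKK1 difference was not tested.

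The 250 bases upstream of DKK1 are shown because, of the 28 members with a promoter entry, only DKK1 held a TCF/LEF core there. They lie at chr10:52314031-52314280 on the plus strand (RefSeq, GRCh38.p14, 5′ to 3′). Capitals mark CTTTGAA and CTTTGTT, 95 and 76 bases upstream of the start, and the TATA box letters TATAAA, 30 bases upstream.
DKK1: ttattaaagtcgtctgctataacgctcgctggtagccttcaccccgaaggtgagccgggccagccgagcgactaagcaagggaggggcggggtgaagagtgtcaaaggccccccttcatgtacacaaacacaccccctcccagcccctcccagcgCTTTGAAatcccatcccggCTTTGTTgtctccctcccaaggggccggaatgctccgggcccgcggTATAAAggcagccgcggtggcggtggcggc
The search was for CTTTGA or CTTTGT, each followed by A or T, on both strands, with no overlap between the matches here, and for TATAAA on the gene's strand. A TCF/LEF core was found in 1 of the 35 member promoters (2.86%), against 11.96% of all promoters in the table, and TATAAA in 2, DKK1 and FZD8 (5.71%), against 6.80%. Member promoters had a median GC content of 68.8%, against 58.0% over all, and its part in the TCF/LEF, TATAAA and NF-κB shares was not tested.

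DKK3, a Dickkopf relative that does not bind LRP5 and LRP6 as DKK1 does, had 152.1, 170.2 and 151.5 CPM in palmatine libraries and 172, 183 and 170 in control libraries. Palmatine library 2 lay at the level of control library 3. The log2 fold change was -0.15 ± 0.0716 (SE; edgeR adjusted p = 0.455), and -0.25 with an unadjusted edgeR p of 0.0189 when the length trend was removed. DKK3 is 11958 bases long in the table, which need not be the length of its mRNA here. Removal of the trend thus moved the estimates of the 2 Dickkopf genes in opposite directions. SFRP1, which binds Wnt proteins outside the cell, stood at 8.41 ± 0.126 FPKM with palmatine and 7.67 ± 0.463 FPKM in controls (SD, n = 3 each), with a log2 fold change of 0.07. WIF1, another Wnt-binding inhibitor, had no read in any of the 6 libraries, which allows up to 0.168 to 0.240 CPM per library. The summed FPKM of the inhibitors was 36.7, 42.2 and 36.5 in palmatine libraries and 38.7, 42.3 and 42.3 in control libraries, with overlap.

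Gene length was set against fold change for the members and for the whole table. Across the 36 tested members the rank correlation of log2 fold change with gene length was 0.221, and across all 12356 genes it was 0.443, both as descriptions over genes that share the same 6 libraries. After the trend was removed they were -0.06 and -0.02. The split of signs among members then stood at 24 positive and 12 negative (66.7% positive), against 49.3% positive over all genes, with a median of 0.08. At an unadjusted p under 0.05, 1 member was higher, LRP4, against 5.35% of all genes, and 3 were lower, PORCN, DKK3 and FZD3, against 5.06% of all genes. No member passed the adjusted threshold in that fit.

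**Figure D4:**
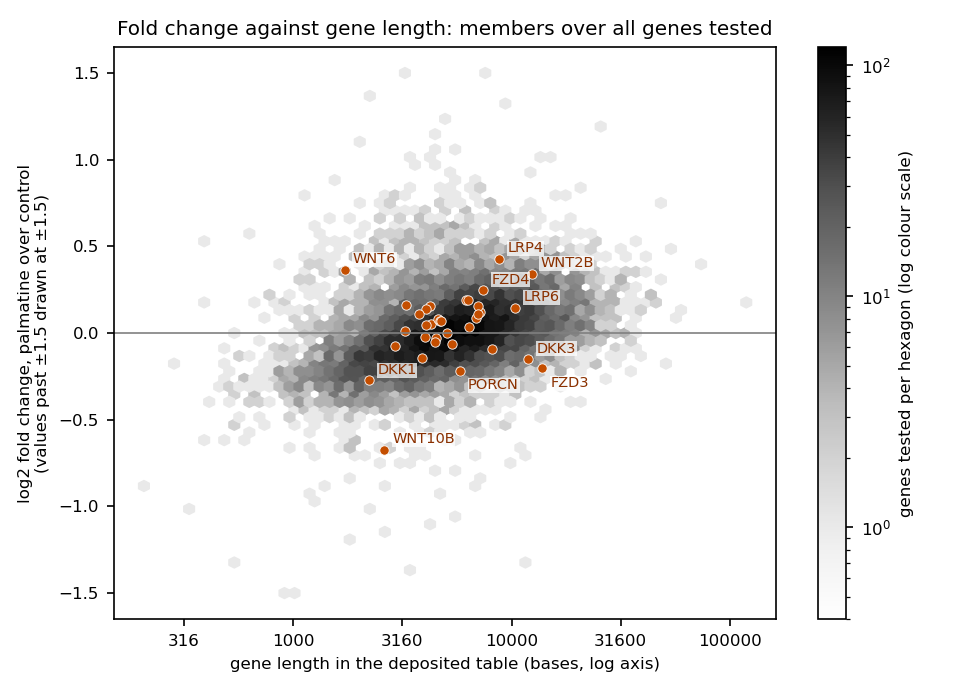
Log2 fold change of palmatine over control against gene length in bases on a log axis; grey hexagons count all 12356 genes tested and orange points are the 36 members. The grey cloud tilts upward with length (rank correlation 0.443). With the trend removed DKK1 went from -0.27 to -0.15, and LRP4, PORCN, DKK3 and FZD3 had an unadjusted edgeR p under 0.05.

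Other genes of the pathway gave no call in any of the lists. Of 34 further extracellular and membrane Wnt genes, 13 could be tested, with 0 called by edgeR after adjustment and a median log2 fold change of 0.16. At an unadjusted p under 0.05, 4 of the 13 were higher and 1 was lower, beside 5.13% and 4.69% of all genes tested. With the length trend removed 3 were higher and 1 was lower, beside 5.35% and 5.06% of all genes. The smallest p among them belonged to CELSR1 (log2 fold change 0.35), RNF43 (0.44), APCDD1 (-0.29) and CELSR2 (0.44). CELSR1 and CELSR2, cadherins of planar polarity, are long in the table, and with the length trend removed stood at 0.24 and 0.33. SOST, the secreted inhibitor sclerostin that binds LRP5, LRP6 and LRP4, was named for that link after its values were seen. It had 8.09 ± 0.288 FPKM in palmatine and 7.66 ± 0.354 FPKM in control libraries (SD, n = 3 each), with a log2 fold change of 0.02.

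Inside the cell, 20 of 23 genes of the beta-catenin destruction complex and the TCF factors were tested, with 0 called and a median log2 fold change of 0.09. At an unadjusted p under 0.05, 3 of the 20 were higher and 0 lower, beside the same 5.13% and 4.69% of all genes. CTNNB1, which encodes beta-catenin, had 237, 268 and 235 CPM in palmatine libraries and 238, 262 and 270 in control libraries, with overlap and a log2 fold change of -0.06 ± 0.0792 (SE; edgeR adjusted p = 0.755). TCF7L1, a TCF factor that mostly represses, had the largest estimate in the list, at 1.13 ± 0.377, but from 8 to 31 reads per library (edgeR adjusted p = 0.455). TLE3, a co-repressor of TCF factors, was at 0.38, TCF7L2 at 0.47, and CTNNBIP1, which keeps beta-catenin from TCF, at -0.24. With the length trend removed TLE3 stood at 0.26, TCF7L2 at 0.43 and CTNNBIP1 at -0.17. In that fit 3 of the 20 genes were higher and 1 lower at an unadjusted edgeR p under 0.05, beside 5.35% and 5.06% of all genes.

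Of 28 genes known as targets of beta-catenin in various tissues, among them the members DKK1, ZNRF3 and LGR5, 20 were tested, with 0 called and a median log2 fold change of -0.01. At an unadjusted p under 0.05, 3 of these 20 were higher and 2 lower, again beside 5.13% and 4.69% of all genes. EPHB2 (0.26) and SOX9 (0.33) were among the 4 with the smallest p, beside RNF43 and APCDD1, which both lists hold. With the length trend removed EPHB2 stood at 0.15 and SOX9 at 0.38. In that fit 2 of the 20 targets were higher and 1 lower at an unadjusted edgeR p under 0.05, beside 5.35% and 5.06% of all genes. AXIN2, the target most used as a reporter of the pathway, had at most 1 read per library and LEF1 at most 8, too few to be tested. The 0 reads of AXIN2 in the palmatine libraries allow up to 0.0609 CPM over that group. A lower level or a small rise in either gene could not be seen at this depth. Summed over all 42 members, FPKM stood at 321 ± 6.58 in palmatine and 310 ± 5.00 in control libraries (SD, n = 3 each), and after TMM scaling at 314 ± 7.35 and 317 ± 2.97, so that even the order of the groups turned on the scaling.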

How the data were processed

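RNA-seq of poly(A) RNA from 3 palmatine and 3 control HaCaT libraries was analysed from 1 deposited table. It holds raw read counts per gene and FPKM, which the authors deposited side by side with a gene length for each of 20035 genes. Reads were aligned with HISAT2 2.1.0 and counted with HTSeq 0.9.1, per the submitters' processing notes. No source used here gives the genome build or the strand setting of the counting. The labels' protocol describes dUTP marking only as an option. All FPKM values equalled the count over length and library total at a relative tolerance of 1e-05, so FPKM carries no further scaling. One line of the table is not analysed here.

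Members and lists were chosen with earlier results of these data known. Counts were tested in R 4.3.3 with edgeR 4.0.16 (quasi-likelihood, robust, TMM, filterByExpr with a minimum count of 10, two-sided, Benjamini-Hochberg over all genes tested), and checked on simulated counts with known changes. Alternatives used limma 3.58.1, DESeq2 1.42.0, other scalings and filters, log2(FPKM + 1) and log2(FPKM + 0.1), removal of a loess trend in gene length (span 0.3), and each library left out. Values in every library are given for the 8 tested members with the smallest p and for the highest in each role, and up to 4 genes with the smallest p are named per pathway list. CTNNB1, AXIN2 and the member LRP4 are named whatever their values, and WNT4, SOST, LEF1 and RSPO4 were added after their values were seen. Totals ranged from 12908646 to 17218171 counts per library, and floors of 3 counts cover counting error only. No label says that replicates were separate cultures. The spread behind each p-value and each edgeR interval is that among these libraries, which may be technical. Gene positions are those of the deposited table, and all 42 members overlapped the GENCODE 29 locus (GRCh38) of the same gene identifier. Exon overlaps come from GENCODE 29, and promoters from RefSeq (GRCh38.p14).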

Additional observations from a re-analysis of the deposited data

How the results depend on the processing

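Under all 19 alternatives 0 members were called, the lowest adjusted p of any being 0.0953, and 25 of the 36 tested members kept their sign. The count of all genes called, 5, was 14 with DESeq2, 8 without a filter on low counts, 8 with the length trend removed and 1 without mitochondrially encoded genes. No label says that the replicate numbers pair the libraries, and 3 correlations are too few to decide it. The correlations of same-numbered deviations were 0.399, 0.178 and -0.0963. Palmatine 1 correlated best with control 1, and palmatine 2 and 3 with control 3 and 1. With a replicate block 9 genes were called, and 13 with the length trend also removed. Members at an unadjusted p under 0.05, 2 higher and 1 lower, were 1 and 0 with DESeq2, 4 and 0 with limma on log2(FPKM + 1) and on log2(FPKM + 0.1), 5 and 3 with the replicate block, 1 and 3 with the length trend removed, and 4 and 4 with both. The count lower was also 0 with library size alone, 2 without a filter, 0 with the stricter filter and 3 with length and GC trends removed, the last chosen after seeing the data. Leaving out a library gave 1 to 5 higher and 0 to 4 lower: 1 and 0 without palmatine 3, control 2 or control 3, 1 higher without palmatine 1, 4 and 4 without palmatine 2, 5 and 3 without control 1. The share of all genes at this unadjusted edgeR p was computed only for the main fit (5.13% higher, 4.69% lower) and with the length trend removed (5.35% and 5.06%). For the other settings the counts of members have no such background and are not a result about the members. The cause of these shifts was not tested.

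Some log2 fold changes reversed. With library size alone WLS was 0.011, WNT7A 0.034, WNT7B 0.062 and WNT9A 0.044; on log2(FPKM + 1) they were 0.011, 0.027, 0.058 and 0.036, and on log2(FPKM + 0.1) 0.012, 0.031, 0.068 and 0.040. WNT7B was 0.0063 with limma-voom, 0.0010 without a filter, 0.00098 with the stricter filter, 0.0016 with the replicate block and 0.0014 with that and the length trend removed. With the length trend removed LGR4 was -0.00045, WNT10A 0.012 and WNT9A 0.025, and with the block too WNT10A was 0.013 and WNT9A 0.021. Over libraries left out, WNT16 ranged from -0.16 to 0.23, WNT5A from -0.32 to 0.31, WNT7A from -0.098 to 0.021, WNT7B from -0.077 to 0.11, FZD8 from -0.053 to 0.26, WNT9A from -0.10 to 0.052, WNT5B from -0.025 to 0.42, LGR4 from -0.0062 to 0.057 and FZD10 from -0.011 to 0.35. WNT6 and WNT10B were not tested under the stricter filter. Depth limits the weakly expressed ligands most, WNT6 and WNT10B at 7 to 23 reads per library.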
